A study of Homo sapiens with 24 samples.

Results

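The 6 libraries described here set ALDHbr cells of the breast cancer line SUM159 against ALDHneg cells of the same line, both kept under the solvent DMSO for 30 h. The labels (cell line, sorted population and treatment) define them, 3 libraries of each population, out of 24 in the series. The series asked what nifuroxazide (NIF), a nitrofuran antibiotic, does to cancer stem cells. The other 18 libraries are SUM159 cells under NIF and cells of the colon cancer line SW620 under DMSO or NIF, and of these the 6 SUM159 libraries under NIF and the 6 SW620 libraries under DMSO are used for comparison.

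Aldehyde dehydrogenases (ALDHs) oxidise aldehydes to acids, and the ALDH1A enzymes make retinoic acid, the ligand of the retinoic acid receptors, from retinal. The ALDEFLUOR assay loads living cells with a fluorescent ALDH substrate whose product stays inside, so that a sorter can part cells of high activity (ALDHbr) from cells without it (ALDHneg). In breast tumors and breast cancer lines ALDHbr cells are widely used as a population enriched in cancer stem cells. The normal breast duct has an inner luminal layer and an outer basal layer, and basal cells carry the transcription factor TP63, keratins such as KRT5, and hemidesmosomes that tie them to laminin of the basement membrane. SUM159 is a triple-negative line of the mesenchymal type, in which most epithelial junction genes are low.

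Both groups are unmodified SUM159 cells grown attached to plastic, treated with DMSO, then sorted by the ALDEFLUOR assay. The line is a single established line, was given by the laboratory that made it, and was not authenticated again. The study's methods give 3 independent experiments, and libraries that share a replicate number deviated together from their group means, so the number was kept as a block in every fit. The ALDHneg and ALDHbr libraries under NIF differ from these only in the drug, whose final dose the labels do not give.

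The authors deposited whole-number read counts for 28307 genes. Totals ran from 30253187 to 36947361 counts in the ALDHbr libraries and from 31630608 to 39754184 in the ALDHneg libraries. Levels are given below in CPM, read counts scaled to a common library size with TMM factors, unless stated otherwise. The label of the line held, since the epithelial genes CDH1, EPCAM, CLDN3, CLDN4 and CLDN7 stayed at or below 2.36 CPM of the plain library total in all 6 libraries. The third ALDHbr library stood apart in 1 respect. A set of 39 genes that SW620 expresses strongly (at least 100 CPM in every SW620 library, under 0.5 CPM in the SUM159 ALDHneg DMSO libraries) summed to 0.392% of its mean SW620 level there, against 0.0187% and 0.0206% in the other 2 ALDHbr libraries and 0.0219% to 0.0309% in the ALDHneg libraries. Of the 39 genes 6 passed the filter on low counts and 1 was called. Without this library 4112 genes were called in place of 5388, the lowest count with any of the 6 libraries left out. The 10 colon epithelial marker genes together reached 5.71 CPM at most in the 6 libraries, against 999.3 to 1556 in SW620. The 15 blood, endothelial and immune marker genes summed to 16.2 to 21.1 CPM in ALDHbr and 27.9 to 35.6 in ALDHneg libraries. The macrophage and lysosomal gene CD68 made up most of that (13.6 to 15.1 against 24.9 to 31.5 CPM), and 11 of the 15 stayed under 1 CPM throughout. Of the 5 that were tested, CD68 was called lower (-0.96) and LYZ higher (1.72), the latter through the third ALDHbr library alone (4.6 CPM, against 0.463 and 0.408 in the other 2).

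ALDHbr and ALDHneg cells differed in many genes. Of 14953 genes tested, 5388 (36.0%) passed an adjusted p of 0.05 in edgeR's quasi-likelihood test with the replicate block, 2672 higher (17.9% of genes tested) and 2716 lower (18.2%) in ALDHbr. The counts of gene lists below are to be read against these shares. Most changes were small, with a median absolute log2 fold change of 0.36 among called genes. Large changes were more often downward, with 294 genes (1.97%) called at a log2 fold change of at least 1 and 678 (4.53%) called at -1 or lower. The direction of the calls followed the level of the gene. Under a mean log2 CPM of 1, 191 genes were called higher and 561 lower, and above 7 the counts were 560 and 227. The values of the 3 ALDHbr libraries did not overlap those of the 3 ALDHneg libraries for 5476 genes (36.6%), 2702 higher and 2774 lower. Because bulk RNA was sequenced, fewer expressing cells and less RNA per cell cannot be told apart in any of these values.

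ALDH1A1, a cytosolic retinal dehydrogenase (Entrez Gene 216, chromosome 9, 72900671 to 72953053 in GRCh38.p14), had the largest change among genes whose mean log2 CPM reached 1. Its level was 150.1, 104 and 153 CPM in the ALDHbr libraries and 0.48, 0.419 and 0.542 CPM in the ALDHneg libraries. Within each experiment the ALDHneg level was 0.319% to 0.405% of the ALDHbr level, so the sorted fractions matched their labels. The log2 fold change was 8.14 (SE 0.11, adjusted p = 1.25e-22). ALDEFLUOR sorts on enzyme activity, so this gene checks the sort and is not a result apart from it. The 250 bases upstream of its RefSeq start are shown because this is the gene that names the populations (GRCh38.p14, chr9:72953054-72953303, minus strand, written 5′ to 3′ in the direction of transcription, with the CCAAT box in capitals):

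ALDH1A1: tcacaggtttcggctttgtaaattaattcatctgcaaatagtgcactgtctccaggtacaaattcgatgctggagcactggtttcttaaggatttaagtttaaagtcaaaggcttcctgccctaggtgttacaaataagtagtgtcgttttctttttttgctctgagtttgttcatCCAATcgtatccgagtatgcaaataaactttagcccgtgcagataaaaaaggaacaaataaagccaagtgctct

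The CCAAT letters lie 74 to 70 bases before the start. Counted on both strands, 32% of the 35116 windows of this kind in the RefSeq table hold them. The share was 33% among windows of genes tested, 37.1% among those of genes called at least 1 log2 unit higher and 28.5% among those called at least 1 lower.

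The rest of the ALDH family did not rise with ALDH1A1. Of 16 members tested, 4 were higher (25%) and 7 lower (43.8%), against 17.9% and 18.2% of all genes tested. The median log2 fold change was -0.37 against 0.0013 over all genes tested. ALDH1A3, another retinal dehydrogenase, was also higher (log2 fold change 1.61, adjusted p = 0.00305), but its level was 0.494, 0.476 and 0.888 CPM in ALDHbr and 0.141, 0.193 and 0.271 CPM in ALDHneg libraries. It stayed under 1 CPM in all 6 libraries. ALDH18A1, which makes the proline precursor, and ALDH3A2, the fatty aldehyde dehydrogenase, were higher by 0.32 and 0.20 on the log2 scale. ALDH3A2 values overlapped between the groups, and it was not called without the replicate block (edgeR adjusted p = 0.0914). ALDH7A1, an enzyme of lysine breakdown, was the member with the largest fall, at 2.69, 2.11 and 2.58 CPM in ALDHbr and 13.3, 18 and 21.9 CPM in ALDHneg libraries (log2 fold change -2.83, SE 0.146, adjusted p = 1.27e-12). ALDH8A1, ALDH4A1, ALDH6A1, ALDH3B1, ALDH5A1 and ALDH1B1 were lower, with log2 fold changes from -1.73 to -0.27. The largest of these, ALDH8A1, rests on few reads, with means of 0.244 CPM in ALDHbr and 0.847 CPM in ALDHneg libraries. ALDH5A1 values overlapped between the groups. It was not called without the replicate block (edgeR adjusted p = 0.205) or without the first ALDHbr library (edgeR adjusted p = 0.0858). The mitochondrial ALDH2 did not pass the test (-0.34, adjusted p = 0.159), nor did ALDH1A2, ALDH9A1, ALDH16A1 and ALDH1L2.

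Of 13 genes of retinoid signalling 3 were higher and 3 lower (23.1% each, against 17.9% and 18.2% of all genes tested, median -0.08), shares near those over all genes. The retinol-forming reductase DHRS3, the receptor RXRA and the retinol dehydrogenase RDH10 were higher by 0.72, 0.63 and 0.45 on the log2 scale. The retinoic acid responsive transglutaminase TGM2, the carrier CRABP2 and the receptor RARG had log2 fold changes of -1.38, -0.75 and -0.46. Surface markers that are often used to sort breast stem cells were called in both directions, with 3 of 12 higher (25%) and 5 lower (41.7%). CD44 lay at 516, 569 and 538 CPM in ALDHbr against 499, 524 and 498 CPM in ALDHneg libraries, ranges that overlapped (log2 fold change 0.09, adjusted p = 0.0832). CD24 was lower (-0.40, adjusted p = 4.17e-04), as were the tetraspanin CD9 (-0.81), the integrin ITGB3 (-0.75), the neurotrophin receptor NGFR (-0.60) and the adhesion molecule ALCAM (-0.47). NGFR values overlapped between the groups. The integrin ITGA6 (CD49f), the protein C receptor PROCR and the ectonucleotidase NT5E were higher by 0.83, 0.67 and 0.64 on the log2 scale. Of the self-renewal factors, 2 of 11 were higher (18.2%) and 4 lower (36.4%). MYC and BMI1 had log2 fold changes of -0.07 and -0.02 and were not called.

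Most tested genes of the basal breast layer were higher in ALDHbr cells. The list holds 16 genes, and of the 12 tested, 7 were called higher (58.3%, against 17.9% of all genes tested) and 0 lower. The basal keratin KRT14 and KRT6B, SOX10 and MIA did not pass the filter on low counts. None of them passed 7 counts in any of the 6 libraries, so these markers were near absent from both populations. The median was 0.49 on the log2 scale. KRT6A, a keratin of activated basal keratinocytes, lay at 13.1, 11.5 and 11.9 CPM in ALDHbr and 0.592, 0.387 and 0.222 CPM in ALDHneg libraries (log2 fold change 4.95, SE 0.21, adjusted p = 5.23e-14). TP63, the transcription factor of basal epithelium, lay at 66, 70 and 65.5 CPM against 12.8, 7.51 and 6.36 CPM (2.95, SE 0.129, adjusted p = 7.75e-14). For both genes every ALDHbr library was at least 5 times above the highest ALDHneg library. KRT5 was higher too (2.15, adjusted p = 0.00124), but it did not pass 0.896 CPM in any of the 6 libraries. KRT17 (0.63), KRT15 (-0.47), FOXC1 (0.21), CAV1 (0.04) and LAMA3 were not called. KRT6A has near-identical copies, and how reads shared with them were counted is not given in the sources used here, so its level is uncertain.

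Several genes of the hemidesmosome, picked from the lists after their values were seen, were called higher. ITGB4, the integrin chain found in hemidesmosomes, lay at 149, 145 and 159.7 CPM in ALDHbr and 10.6, 7.48 and 4.56 CPM in ALDHneg libraries (log2 fold change 4.35, SE 0.148, adjusted p = 1.45e-15). Its partner ITGA6 changed less, from 167 ± 11.3 CPM in ALDHneg to 297 ± 15.9 CPM in ALDHbr cells (SD, n = 3 each). LAMB3, a chain of laminin-332, the hemidesmosome's anchor outside the cell, was higher by 0.35 on the log2 scale, while LAMA3, another chain of it, was not called (-0.03, adjusted p = 0.713). The hemidesmosomal collagen COL17A1 lay at 26.7, 29 and 23 CPM against 9.2, 8.96 and 4.73 CPM (1.81, SE 0.118). Apart from LAMA3, no ALDHbr value of these genes fell within the ALDHneg range. The whole laminin and integrin families were chosen after values were seen. Of 11 laminins 5 were higher (45.5%) and 2 lower (18.2%), and of 18 integrins 7 were higher (38.9%) and 6 lower (33.3%). Over all genes tested 17.9% were higher and 18.2% lower. ITGA2 (1.64) and the laminin LAMA5 (0.88) were among the higher, and ITGA11 (-2.19) and LAMC3 (-1.92) were the lowest.

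**Figure D1:**
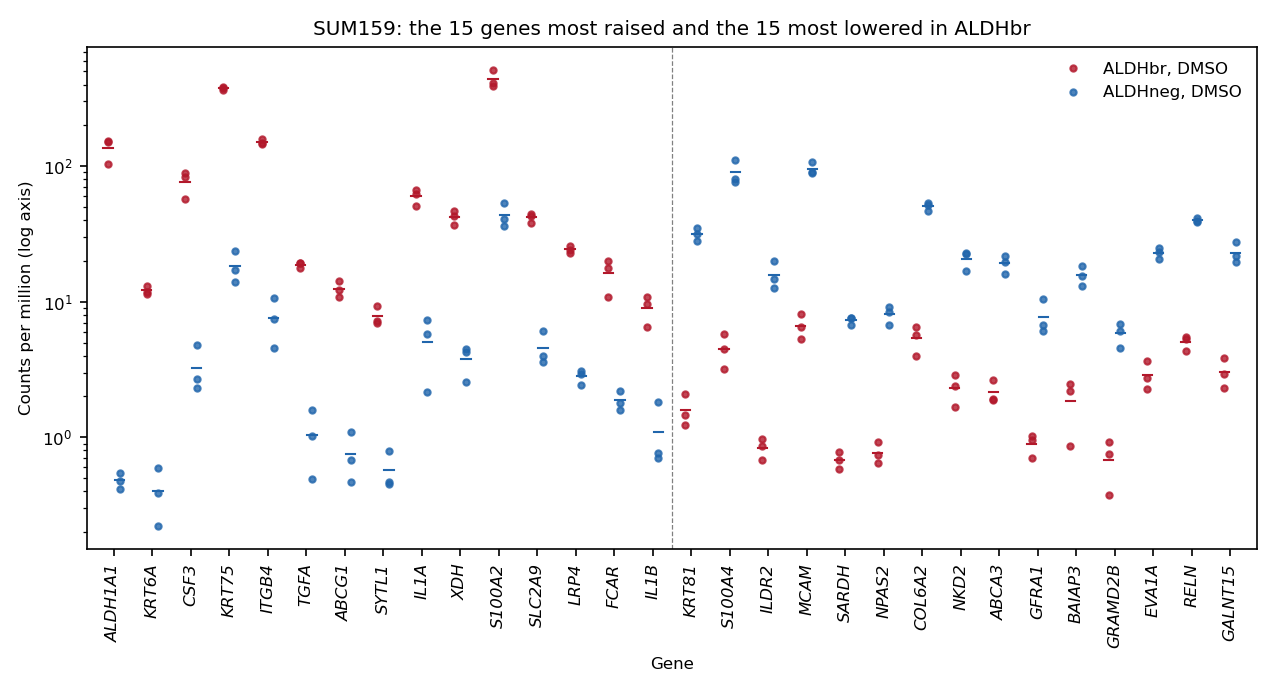
Points are single libraries and short bars the mean of 3, in CPM on a log axis, for the 15 genes with the highest (left) and the 15 with the lowest (right) log2 fold change among well-expressed genes whose groups do not overlap. In each gene the 3 ALDHbr libraries (red) are apart from the 3 ALDHneg libraries (blue), from ALDH1A1 at 8.14 down to KRT81 at -4.28 on the log2 scale.

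Epithelial genes as a class did not follow the basal ones. Of 11 tested, 3 were higher and 2 lower. The desmosome protein DSP (1.13), the tight junction protein CLDN1 (1.05) and plakoglobin JUP (0.75) were higher, and OCLN (-0.65) and KRT8 (-0.42) were lower. Of 10 luminal breast genes 1 was higher and 2 were lower, GATA3 among the latter at -0.46.

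Of 22 mesenchymal genes 14 were lower (63.6%, against 18.2% of all genes tested) and 4 higher. The median was -0.31 on the log2 scale. S100A4, a calcium-binding protein of motile and fibroblast-like cells, lay at 4.48, 3.2 and 5.73 CPM in ALDHbr and 80.4, 112 and 77 CPM in ALDHneg libraries (log2 fold change -4.28, SE 0.133, adjusted p = 3.49e-16). The other changes were smaller. N-cadherin CDH2 lay at 104, 127 and 123 CPM against 172, 184 and 195 CPM (-0.64). LOXL2 (-1.18), TAGLN (-0.94), TWIST1 (-0.80) and FN1 (-0.36) were lower as well. VIM, the intermediate filament of mesenchymal cells, had a log2 fold change of -0.01 (adjusted p = 0.946), and ZEB1 one of -0.15, and neither was called. The members called higher were POSTN (2.31, not above 0.996 CPM in any of these libraries), ACTA2 (1.11), TNC (0.26) and SNAI2 (0.21). Apart from S100A4, no member had a log2 fold change below -1.18.

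S100A2, a calcium-binding protein of basal epithelium, moved opposite to its neighbour S100A4. S100A2 lay at 390.5, 513 and 411 CPM in ALDHbr and 40.9, 53.5 and 36.4 CPM in ALDHneg libraries (log2 fold change 3.34, SE 0.0633, adjusted p = 6.84e-20). Both genes are on chromosome 1, S100A4 from 153543621 to 153545806 and S100A2 from 153561108 to 153565844 in GRCh38.p14. Between them S100A3 was lower (-0.43), and so was S100A6 (-0.38) on the other side. Of the 9 S100A genes of this chromosome that were tested, 3 were higher and 3 lower. The 250 bases before a RefSeq start of each gene are shown because the pair changed in opposite directions within a short stretch (chr1:153565845-153566094 for S100A2 and chr1:153545807-153546056 for S100A4, both minus strand, written 5′ to 3′ in the direction of transcription). Capitals mark the AP-1 motif TGANTCA in S100A2, and the E-box CACCTG and the TATA box TATAAA in S100A4.

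S100A2: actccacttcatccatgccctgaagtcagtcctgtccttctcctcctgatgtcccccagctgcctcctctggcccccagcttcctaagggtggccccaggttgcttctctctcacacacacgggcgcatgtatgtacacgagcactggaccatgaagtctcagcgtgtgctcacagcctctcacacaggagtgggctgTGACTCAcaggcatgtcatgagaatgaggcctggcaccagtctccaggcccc
S100A4: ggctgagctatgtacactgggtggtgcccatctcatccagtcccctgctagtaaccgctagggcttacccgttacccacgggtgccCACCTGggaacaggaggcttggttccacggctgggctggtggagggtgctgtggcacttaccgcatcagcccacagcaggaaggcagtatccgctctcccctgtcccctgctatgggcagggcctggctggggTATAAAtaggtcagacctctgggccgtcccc

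The AP-1 letters lie 52 to 46 bases before the S100A2 start, the E-box 164 to 159 and the TATA box 31 to 26 bases before the S100A4 start. S100A2 has another start in the table, not printed, with CACCTG 18 to 13 bases before it. On both strands, TGANTCA is held by 6.57% of all windows in the table, by 4.93% of those of genes tested, by 8.12% of those of genes called at least 1 log2 unit higher and by 7.69% of those called at least 1 lower. In the same order the shares were 17.5%, 15.8%, 23.8% and 18.8% for CACCTG, and 10.7%, 6.48%, 11.6% and 10.7% for TATAAA. A window for 11535 of the 14953 genes tested was found in the table. These are letter matches and not binding sites.

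Type II keratins, which lie side by side on chromosome 12, also split (the family was chosen after values were seen). KRT75, a keratin of the hair follicle, lay at 363, 379 and 385 CPM in ALDHbr and 23.8, 17.1 and 14.1 CPM in ALDHneg libraries (log2 fold change 4.37, SE 0.119, adjusted p = 6.48e-17). KRT81, a hair keratin, went the other way, at 1.45, 1.23 and 2.07 CPM against 31.8, 34.8 and 27.8 CPM (-4.28, SE 0.14, adjusted p = 7.93e-16). Of 8 members tested, KRT6A, KRT75 and KRT5 were higher, KRT81, KRT86 (-1.46), KRT80 (-0.82) and KRT8 (-0.42) lower, and KRT7 (-0.09) was not called. KRT81 and KRT86 are close in sequence and their genes overlap, so their counts may share reads.

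Collagens were called in both directions, and no test by type was run. Of 20 tested 8 were higher (40%) and 10 lower (50%), against 17.9% and 18.2% of all genes tested. The chains of collagen VI, which forms microfibrils around mesenchymal cells, were lower. COL6A2 lay at 6.49, 3.98 and 5.65 CPM in ALDHbr and 53, 51.6 and 47 CPM in ALDHneg libraries (log2 fold change -3.22, SE 0.0987), its neighbour on chromosome 21, COL6A1, at 8.19, 7.52 and 8.29 CPM against 49.7, 51.5 and 47.4 CPM (-2.62, SE 0.0762), and COL6A3 changed by -0.65. The fibrillar chains COL1A1 (-1.53), COL3A1 (-1.52) and COL5A1 (-1.19) were lower too, while COL27A1, also fibrillar, was higher (0.40) and COL5A2 (0.10) was not called. Higher were the basement membrane chains COL4A1 (0.65), COL4A2 (0.55), COL4A5 (0.60) and COL4A6 (0.66), the anchoring fibril chain COL7A1 (0.37), and COL17A1 as given above, whereas COL18A1, another basement membrane collagen, was lower (-0.44). MCAM (CD146), an adhesion molecule of vessel wall and melanoma cells and no collagen, lay at 6.52, 5.27 and 8.13 CPM against 90, 88.9 and 106 CPM (-3.85, SE 0.0802, adjusted p = 3.29e-19).

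The EGF and PDGF families of growth factors and receptors were chosen after values were seen, and both held members called in each direction. TGFA, a ligand of the EGF receptor, lay at 19.2, 17.6 and 19.2 CPM in ALDHbr and 1.58, 1.03 and 0.493 CPM in ALDHneg libraries (log2 fold change 4.22, SE 0.193, adjusted p = 1.67e-13). EREG, another such ligand, lay at 274, 219 and 214 CPM against 101, 71.1 and 61.3 CPM (1.61, SE 0.0981). EPGN (3.79) and AREG (1.66), neighbours of EREG on chromosome 4, were higher as well, and the receptor EGFR by 0.25. EPGN is not among the 15 highest genes of the ranking, although IL1B, with a smaller log2 fold change (3.04), is. EPGN therefore missed a condition of that ranking (mean log2 CPM of at least 1, groups not overlapping), so its fold is less certain. HBEGF (0.12) and BTC (-0.85) were not called. NRG1, a ligand of ERBB3 and ERBB4, was lower, at 21.7, 23.4 and 18.2 CPM against 72.4, 74.1 and 74.6 CPM (-1.81, SE 0.0954). In all 6 of the 12 tested members of the EGF family were higher (50%, against 17.9% of all genes tested) and 1 was lower.

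In the PDGF system the ligands PDGFB (-2.90) and PDGFC (-1.13) and the receptor PDGFRB (-2.74) were lower. PDGFRB lay at 1.17, 0.953 and 1.72 CPM in ALDHbr and 9.14, 7.15 and 9.54 CPM in ALDHneg libraries. The other receptor, PDGFRA, was higher, at 52.7, 45.6 and 53.4 CPM against 20.8, 13.5 and 13.8 CPM (1.67, SE 0.108, adjusted p = 5.12e-11). PDGFA was not called (-0.14), so that of 5 members tested 3 were lower (60%, against 18.2% of all genes tested) and 1 was higher.

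Cytokine genes changed in both directions, and the largest changes were upward. Of 19 inflammatory cytokines and chemokines 7 were higher (36.8%) and 4 lower (21.1%), against 17.9% and 18.2% of all genes tested (median 0.20). CSF3, which encodes G-CSF, lay at 89.3, 57.4 and 83.3 CPM in ALDHbr and 4.82, 2.67 and 2.32 CPM in ALDHneg libraries (log2 fold change 4.56, SE 0.163, adjusted p = 3.02e-15). IL1A lay at 62.7, 66.2 and 50.8 CPM against 7.33, 5.74 and 2.17 CPM (3.61, SE 0.17). IL1B (3.04) and, in the IL-1 family as a whole (chosen after values were seen), the receptor IL1RL1 (2.15) were also higher, so that 6 of 9 members tested were higher and 1, the receptor IL1R1 (-0.41), was lower. IL6 was lower, at 7.82, 6.47 and 3.82 CPM against 25, 14.8 and 14.4 CPM (-1.59, SE 0.115, adjusted p = 3.12e-10), as were IL24 (-2.02), CSF1 (-0.81) and IL11 (-0.66). IL24 rests on few reads, with means of 0.211 CPM in ALDHbr and 0.829 CPM in ALDHneg libraries. CXCL8 (0.45) and CXCL2 (0.64) were higher.

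STAT3, the transcription factor that the study examined as a target of NIF, was higher by 0.31 and its upstream receptor chains IL6R and IL6ST by 1.10 and 0.32 on the log2 scale. In the JAK-STAT list as a whole 11 of 31 were higher (35.5%) and 7 lower (22.6%), against 17.9% and 18.2% of all genes tested. Among the lower were SOCS2 (-0.90) and IL11RA (-1.08). SOCS3, a direct STAT3 target, was not called (0.05).

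Among other genes at the ends of the ranking, ABCG1, a cholesterol exporter, had a log2 fold change of 4.06, XDH, the last enzyme of purine breakdown to urate, 3.50, and SLC2A9, a urate transporter, 3.22. The Rab27 effector SYTL1 was higher by 3.78, and the agrin receptor LRP4 and the IgA receptor FCAR by 3.09 each. At the other end were ILDR2 (-4.23), the sarcosine dehydrogenase SARDH (-3.42), the clock transcription factor NPAS2 (-3.39), the lipid transporter ABCA3 (-3.13), the GDNF receptor GFRA1 (-3.12), BAIAP3 (-3.12), GRAMD2B (-3.12), EVA1A (-2.99), the matrix protein RELN (-2.98) and GALNT15 (-2.93). All 30 genes at the 2 ends had an adjusted p of at most 1.75e-09. Being called, with groups that did not overlap, was a condition of this ranking and not a result of it.

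**Figure D2:**
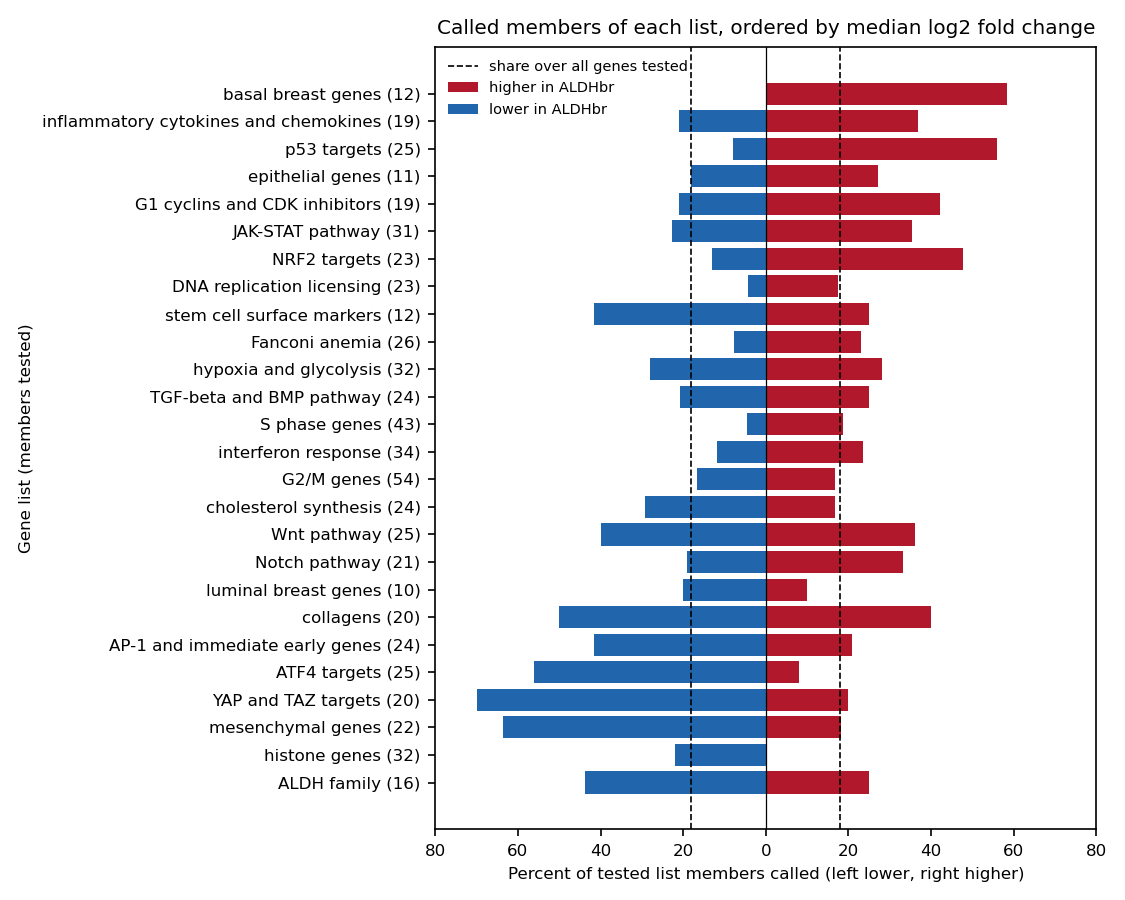
Bars give the percent of tested members of each gene list called higher (red, to the right) and lower (blue, to the left) in ALDHbr, with the number tested in parentheses and lists ordered by median log2 fold change. Dashed lines mark 17.9% higher and 18.2% lower over all genes tested, and of the 26 lists drawn, basal breast genes, p53 targets and NRF2 targets have the largest shares on the right, and YAP and TAZ targets, mesenchymal genes and ATF4 targets those on the left.

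Targets of YAP and TAZ, the coactivators that respond to cell spreading and tension, were lower. Of 20 tested 14 were lower (70%, against 18.2% of all genes tested) and 4 higher (20%, against 17.9%), with a median of -0.27. CCN1 lay at 143, 146 and 138 CPM in ALDHbr and 298, 326 and 382 CPM in ALDHneg libraries (log2 fold change -1.23, SE 0.0755), and CCN2 at 109, 139 and 123 CPM against 283, 335 and 283 CPM (-1.28, SE 0.0856). The ranges did not overlap for either. TGFB2 (-1.90), ANKRD1 (-1.05) and the kinase AXL (-0.76) were lower, and NT5E (0.64) and AMOTL1 (0.40) were the highest. Of 24 genes of AP-1 and the immediate early response 10 were lower (41.7%) and 5 higher (20.8%). KLF2 was lowest (-2.29) and the ERK phosphatase gene DUSP6 highest (1.07).

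Wnt genes were called often and in both directions. Of 25 tested 9 were higher (36%) and 10 lower (40%), against 17.9% and 18.2% of all genes tested. The inhibitor DKK1 lay at 18, 20.8 and 21.9 CPM in ALDHbr and 89, 109.7 and 117 CPM in ALDHneg libraries (log2 fold change -2.38, SE 0.0735, adjusted p = 3.47e-16). The noncanonical ligand WNT5A lay at 7.57, 7.62 and 6.41 CPM against 33.8, 32.4 and 28.9 CPM (-2.14, SE 0.0863). The inhibitor NKD2 (-3.16), the ligand WNT5B (-1.50) and the receptor FZD2 (-0.98) were lower. The transcription factor TCF7 (1.03), the ligand WNT9A (0.98) and the Wnt target SP5 (0.93) were higher, and AXIN2, a common readout of the pathway, was not called (-0.02).

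The Notch ligand JAG2 lay at 177, 178 and 186 CPM in ALDHbr and 53.4, 55.7 and 53 CPM in ALDHneg libraries (1.74, SE 0.053). NOTCH1, NOTCH2 and JAG1 were higher by 0.43, 0.30 and 0.46 on the log2 scale, and the targets HEY1 (-0.73) and HES1 (-0.30) were lower. In the list 7 of 21 were higher (33.3%) and 4 lower (19.0%), against 17.9% and 18.2% of all genes tested. In the TGF-beta and BMP list 6 of 24 were higher (25%) and 5 lower (20.8%), shares near those over all genes tested. TGFB2 (-1.90), BMP4 (-1.87) and LTBP1 (-1.83) were lowest and INHBA (0.85) was highest. INHBA values overlapped between the groups, and it was not called in DESeq2 (adjusted p = 0.0728) or without the replicate block (edgeR adjusted p = 0.332).

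Targets of p53 were higher. Of 25 tested 14 were higher (56%, against 17.9% of all genes tested) and 2 lower (8%, against 18.2%), with a median of 0.17. CDKN1A, the CDK inhibitor p21, lay at 111, 109 and 114 CPM in ALDHbr and 58.3, 57.7 and 52.7 CPM in ALDHneg libraries (log2 fold change 0.98, SE 0.0668, adjusted p = 1.14e-10). BTG2, an antiproliferative gene, lay at 13, 11.3 and 15.8 CPM against 5.25, 3.35 and 4.44 CPM (1.62, SE 0.111). MDM2, the ubiquitin ligase of p53, was higher by 0.46, while the death gene BBC3 (-0.90) and the repair gene DDB2 (-0.35) were lower. PMAIP1 (-0.00), GADD45A (0.01) and BAX (0.10) were not called. In the BCL2 family 4 of 15 were higher (26.7%) and 3 lower (20%). The survival gene MCL1 (0.51) and the killer BCL2L11 (0.58) were at the top, and BOK (-1.53) and BMF (-1.27) at the bottom.

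Cell cycle genes differed little. In the S phase list 8 of 43 were higher and 2 lower (median 0.03), and in the G2/M list 9 of 54 were higher and 9 lower (median -0.02), against 17.9% higher and 18.2% lower over all genes tested. The kinase AURKB, at 48.7, 49.6 and 50.5 CPM against 85.4, 95.9 and 88.7 CPM (-0.86, SE 0.0534), and PIMREG (-1.20) were the exceptions in size. Of the G1 cyclins and CDK inhibitors 8 of 19 were higher and 4 lower, the cyclins CCND2 (1.32), CCNE1 (0.43) and CCNE2 (0.37) among the former and CDKN1C (-1.47) among the latter. Replication licensing genes (4 of 23 or 17.4% higher, 1 lower) and Fanconi anemia genes (6 of 26 or 23.1% higher, 2 lower) changed by 0.31 log2 units at most. BRCA1 (0.24) and FANCA (0.15) were higher, and FANCD2 (0.11) and FANCI (0.10) were not called. Histone genes had 0 higher and 7 lower of 32, and cytosolic ribosomal protein genes 4 higher and 7 lower of 75.

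NRF2 targets were higher in 11 of 23 cases (47.8%, against 17.9% of all genes tested) and lower in 3 (13.0%, against 18.2%), with a median of 0.11. AKR1C2, an aldo-keto reductase, lay at 91.2, 135 and 87.5 CPM in ALDHbr and 14.4, 17 and 12.5 CPM in ALDHneg libraries (log2 fold change 2.83, SE 0.0909), and its close relatives AKR1C1 (1.40) and AKR1C3 (1.15) were higher as well, though reads may be shared among the 3 genes. The cystine transporter SLC7A11 (0.46) and TKT (0.33) were higher, and GCLM (0.00), GCLC (-0.04) and SRXN1 (0.11), other standard targets, were not called. HMOX1 was lower (-0.60), but its values overlapped between the groups and it was not called without the replicate block (edgeR adjusted p = 0.0678).

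Targets of ATF4, the factor of the amino acid and unfolded protein response, were lower. Of 25 tested 14 were lower (56%, against 18.2% of all genes tested) and 2 higher (8%, against 17.9%), with a median of -0.17. The stress factor DDIT3 lay at 11.9, 11.5 and 9.8 CPM in ALDHbr and 19.9, 18.6 and 17.3 CPM in ALDHneg libraries (-0.75, SE 0.09), and CHAC1 (-1.15), the serine synthesis enzyme PHGDH (-0.76) and ATF3 (-0.63) were lower too. ATF3 values overlapped between the groups, and it was not called without the replicate block (edgeR adjusted p = 0.384). Without the third ALDHbr library 9 members were lower in place of 14. Stress chaperones split, with HSPA1A (-1.37), HSPA6 (-1.13) and HSPB1 (-0.99) lower and CRYAB (0.92) higher among 7 lower and 7 higher of 20.

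Interferon genes (8 of 34 higher, 4 lower), class I antigen presentation genes (4 of 18 higher, 3 lower), hypoxia and glycolysis genes (9 of 32 higher, 9 lower) and cholesterol synthesis genes (4 of 24 higher, 7 lower) had medians between -0.03 and 0.04. Their shares ran from 16.7% to 28.1% higher and from 11.8% to 29.2% lower, against 17.9% and 18.2% of all genes tested. Single members moved more, such as MX2 (-2.60) and TRIM22 (1.20) of the interferon list, CA9 (-2.15) of the hypoxia list and SQLE (0.74) of the cholesterol list. MX2 rests on few reads, with means of 0.133 CPM in ALDHbr and 0.805 CPM in ALDHneg libraries. Of 11 drug efflux transporters 3 were higher and 2 lower, and neither ABCG2 (-0.14) nor ABCB1 (0.39) was called. Of 5 aryl hydrocarbon receptor targets 2 were higher, NQO1 (0.19) and SLC7A5 (0.13), and CYP1A1 (-1.43) was lower, and of 3 metallothioneins MT1X (0.27) and MT2A (0.21) were higher and MT1E (-0.28) lower. Values of NQO1 and MT1X overlapped between the groups. Without the replicate block NQO1, SLC7A5 and MT1X were not called (edgeR adjusted p = 0.28, 0.151 and 0.113).

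The same comparison in the 6 SUM159 libraries kept under NIF, which share no library with the DMSO comparison, called 5270 genes (35.2%). Both comparisons come from the same fit, with a common replicate block and spread estimate, so they are not fully independent. Of the 5388 genes called under DMSO, 5311 (98.6%) had the same sign there and 4054 (75.2%) were called in the same direction. ALDH1A1 had a log2 fold change of 8.65 under NIF, ITGB4 one of 4.70, KRT75 4.44, S100A2 3.47, S100A4 -4.32 and MCAM -4.04. The basal breast list had a median of 0.45 and the mesenchymal list one of -0.32.

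The difference between the effects, tested as an interaction in the fit of the 12 SUM159 libraries, passed the threshold for 6 genes (0.0401% of those tested). AREG, a ligand of the EGF receptor, lay under DMSO at 35.8, 20 and 32.8 CPM in ALDHbr and 11.4, 8.15 and 8.06 CPM in ALDHneg libraries. Under NIF it lay at 15.4, 10.6 and 21.5 CPM and 12.9, 10.1 and 21 CPM, so that its values overlapped (log2 fold change 0.12) and the difference between the effects was -1.54 (SE 0.215, adjusted p = 0.00336). EREG, its neighbour, had an effect of 0.82 under NIF (difference -0.80, adjusted p = 0.032).

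The hormone gene STC1 and the transcription factor RUNX2 were lower in ALDHbr cells under DMSO (-0.69 and -0.86) and more so under NIF (-1.65 and -1.67). FAM167A was not called under DMSO (0.16) and was lower under NIF (-0.51). BAIAP3, among the lowest genes under DMSO, lay under NIF at 0.821, 1.29 and 1.15 CPM in ALDHbr and 1.6, 1.82 and 1.92 CPM in ALDHneg libraries, against 18.4, 13.1 and 15.5 CPM in ALDHneg libraries under DMSO. The difference was 2.41 (adjusted p = 0.00619). Fitted without the replicate block, 0 of the 14953 genes passed in this interaction (edgeR, with 238 at an unadjusted p under 0.05).

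**Figure D3:**
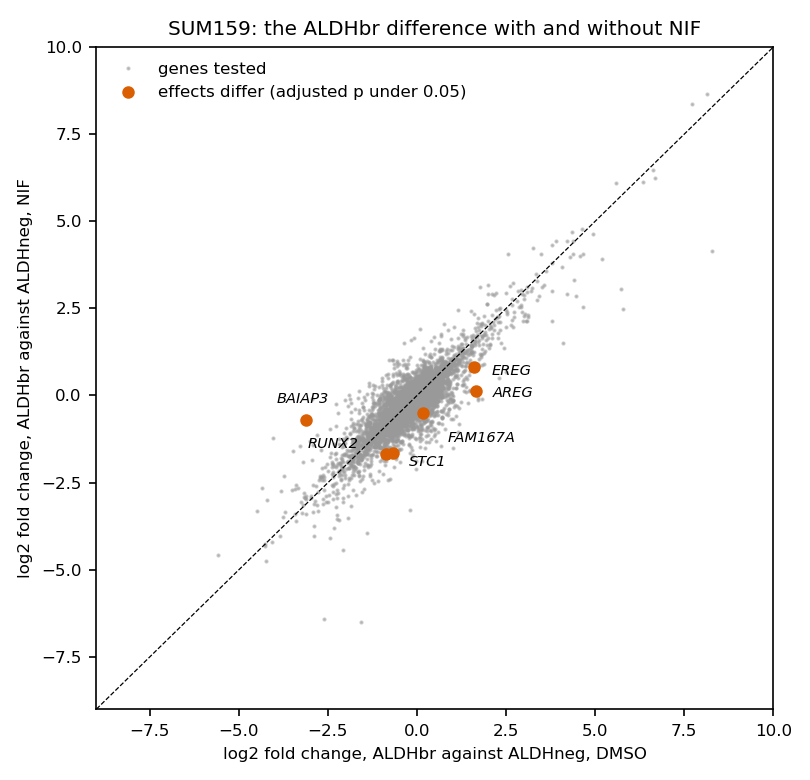
Each point is a gene, with its log2 fold change of ALDHbr against ALDHneg under DMSO on the horizontal and under NIF on the vertical axis, and the dashed line marks equal effects. Most genes lie along the line, and the 6 orange points are those whose effects differed, AREG by -1.54 and BAIAP3 by 2.41.

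SW620 cells sorted in the same way did not share the SUM159 pattern. In a fit of all 24 libraries the ALDHbr effect differed between the lines for 3845 of 16271 genes (23.6%), 2016 with a higher value in SUM159 and 1829 with a lower one. Of the 5388 genes called in SUM159, 2201 (40.9%) had the same sign in SW620. Many SUM159 genes are near 0 in SW620, so genes whose mean log2 CPM reached 1 in both lines were also taken alone. Over all 10132 genes at that level in both lines the effects in SUM159 and SW620 had a Pearson correlation of -0.10. Of 207 such genes called at 1 log2 unit or more in SUM159, 36 were called in the same and 40 in the opposite direction in SW620. The share of all genes called in SW620 is not given here, so these counts lack that background.

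ALDH1A1 was higher in ALDHbr cells of SW620 by 0.55 on the log2 scale, and the difference between the lines was 7.60 (SE 0.135, adjusted p = 6.16e-20). ITGB4 and TGFA had values of -0.37 and -0.40 in SW620 and differed between the lines by 4.73 and 4.61. MCAM was higher in SW620 (0.78) and S100A4 and NPAS2 were not called there (-0.07 and 0.11), with differences of -4.62, -4.21 and -3.50. COL6A1 (1.33), CCN1 (0.76) and CCN2 (1.00) were called in the opposite direction in SW620. BTG2 was higher in ALDHbr cells of both lines (0.76 in SW620), as was ALDH18A1 (0.33 in SW620, with a difference between the lines of -0.01, adjusted p = 0.997). CD44, not called in SUM159, was higher by 0.72 in ALDHbr cells of SW620 (difference -0.62, adjusted p = 1.71e-05).

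**Figure D4:**
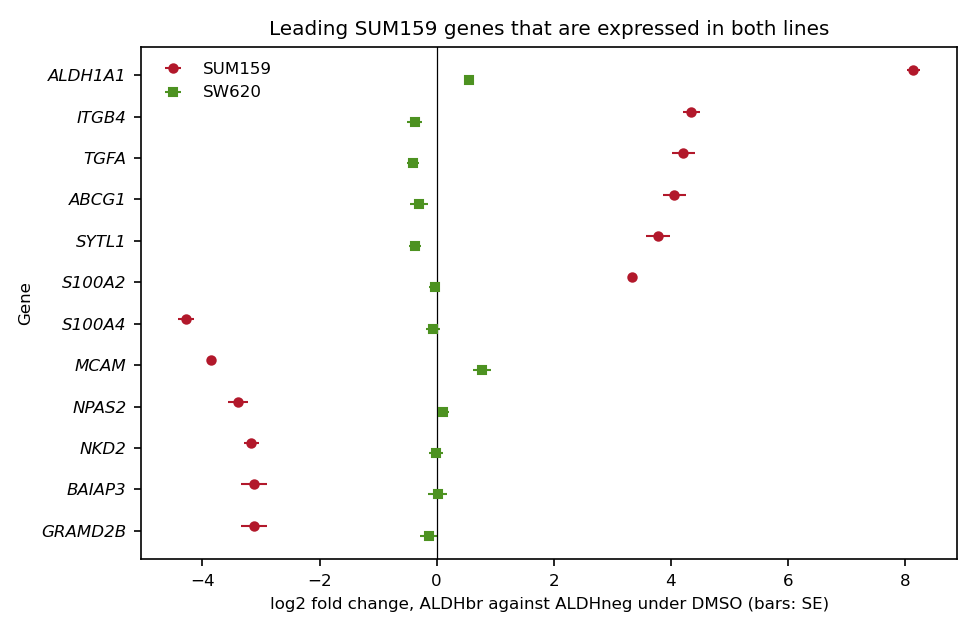
Points give the log2 fold change of ALDHbr against ALDHneg under DMSO in SUM159 (red circles) and SW620 (green squares), with bars for the SE, for the 12 of the 30 leading SUM159 genes whose mean log2 CPM reaches 1 in each line. In SW620 all 12 lie within 1 log2 unit of 0, while in SUM159 they run from -4.28 to 8.14.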

How the data were processed

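The authors sequenced total RNA with a stranded kit, and their deposited table gives raw read counts per gene as whole numbers. FastQC, STAR and GRCh38 are named in the submitters' processing notes, while the counting tool and its strand setting are not given in the sources used here. Rows were matched to the labels by column name. Genes were filtered by filterByExpr (14953 kept) and scaled by TMM, and edgeR 4.0.16 (R 4.3.3) fitted its quasi-likelihood model to the 12 SUM159 libraries with 4 groups and the replicate number as a block. SW620 was compared in a fit of all 24 libraries. P-values were adjusted by Benjamini-Hochberg over all genes tested, at 0.05.

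The numbers were taken as pairs because deviations from the group means correlated by 0.125 to 0.451 in 18 of 18 pairs of same-numbered SUM159 libraries. Replicates differed by more than counting noise (chi-square per gene 6.65 to 25.3). On simulated counts for the main comparison (14953 genes, 200 changed) the test recovered 99% of genes changed by 1 and 100% of those changed by 2 on the log2 scale, and 8.72% of its calls were false. The changed genes were drawn from well-expressed ones, and no replicate effect was simulated. Recovery at low levels and the replicate block were therefore not tested, and far fewer genes were changed than the data call.

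The libraries, gene lists and tests were chosen with earlier results of these data known. The EGF, PDGF, laminin, integrin, IL-1, S100A and type II keratin lists were added after values were seen. Named genes are every ALDH gene, the 15 highest and 15 lowest called genes (mean log2 CPM of at least 1, groups not overlapping), the 2 highest and 2 lowest of each list, and the 3 highest and 3 lowest of each difference. Not every gene that the rule names is reported here. Other members named in the text were chosen after their values were seen. The alternatives were other scalings, filters, DESeq2 1.42.0, a fold minimum, no block, other sets of libraries and each library left out. Promoter windows are RefSeq's (GRCh38.p14).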

Additional observations from a re-analysis of the deposited data

Results flagged for a closer look

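For 6 genes the ALDHbr effect under NIF differed from that under DMSO by the interaction test in edgeR. The differences, NIF minus DMSO on the log2 scale, were -1.54 for AREG, -0.96 for STC1, -0.81 for RUNX2, -0.80 for EREG, -0.66 for FAM167A and 2.41 for BAIAP3. AREG and EREG were higher in ALDHbr cells under DMSO and less so under NIF, and BAIAP3 had a log2 fold change of -3.12 under DMSO and -0.71 under NIF.

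The ALDHbr effect differed between SUM159 and SW620 under DMSO for 3845 genes by the test of the difference. Among genes expressed in both lines, the differences at the upper end, SUM159 minus SW620 on the log2 scale, were 7.60 for ALDH1A1, 4.73 for ITGB4 and 4.61 for TGFA. At the lower end they were -4.62 for MCAM, -4.21 for S100A4 and -3.50 for NPAS2.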

How the results depend on the processing

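In place of 5388 genes called in SUM159, 972 remained with an absolute log2 fold change of at least 1, of which 30.2% were higher against 49.6% of all calls. Without the replicate block 3432 genes were called with all 12 libraries, and 2875 with the 6 DMSO libraries alone. Leaving out each library gave 4112 to 4778. For the difference between NIF and DMSO, 6 genes became 2 with the fold minimum, 0 without the replicate block (edgeR, 238 at an unadjusted p under 0.05; DESeq2 with the block called 6), 39 without the expression filter and 2 to 7 with a library left out. Without ALDHbr NIF replicate 1 there were 3, and without ALDHbr NIF replicate 2 there were 2. For the difference between the lines, 3845 became 939 with the fold minimum, and 2811 to 5486 with a library left out. The other settings kept these counts within 1.5 times, and the causes were not tested.

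Without the block, ATF4 targets had 6 lower in place of 14 and mesenchymal genes 10 in place of 14. Of 165 named genes, 74 kept their call in all 17 settings. The fold minimum is 1 of these settings and by its definition drops every call under 1 log2 unit. CDKN1A (0.98), AURKB (-0.86) and RXRA (0.63) lost their call only there. LYZ, a lysozyme gene of blood cells that ALDHneg SW620 cells hold at a mean of 1557 CPM, was the 1 gene that reversed. It lay at 0.463, 0.408 and 4.6 CPM in ALDHbr and 0.536, 0.387 and 0.469 CPM in ALDHneg libraries (log2 fold change 1.72), and without the third ALDHbr library its value was -0.11 (edgeR adjusted p = 0.883). With another library left out it reached 2.37 at most. Genes under 1 CPM rest on few reads, and their folds are the least certain.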

Other observations

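A few genes were near absent from one population and measurable in the other. They were chosen after their values were seen, and lie at or below the level used to rank genes in the text. MIR205HG, the host transcript of a basal epithelial microRNA, lay at 2.32, 2.28 and 3.5 CPM in the ALDHbr libraries and 0.0282, 0 and 0 CPM in the ALDHneg libraries. EDA2R, a receptor of the TNF family, lay at 0.989, 1.05 and 1.86 CPM against 0, 0.0322 and 0 CPM, and NSG1, a neuronal vesicle protein, at 8.68, 9.32 and 10.8 CPM against 0.113, 0.0644 and 0.0986 CPM. In the other direction VAT1L lay at 0.0618, 0 and 0.0807 CPM in ALDHbr and 2.85, 2.09 and 2.71 CPM in ALDHneg libraries. BDNF, a neurotrophin, lay at 0.494, 0.238 and 0.646 CPM against 6.91, 6.48 and 5.72 CPM. The groups did not overlap in these 5 genes, which follows from how they were chosen.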
